A study of Mus musculus with 8 samples.

Results

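The Cyp2d genes encode a subfamily of liver cytochrome P450 enzymes, and 9 of them (Cyp2d9, Cyp2d10, Cyp2d11, Cyp2d12, Cyp2d13, Cyp2d22, Cyp2d26, Cyp2d34 and Cyp2d40) were looked for by Ensembl identifier among the 14317 mouse genes of the liver data. A row was matched for 7 of the 9, and all 7 passed the filter on low values; Cyp2d13 and Cyp2d34 were not matched and were not analysed here. The samples were whole livers of female mice fed a Western Diet (WD) for 8.5 weeks, 4 with an empty pellet (Con-Veh) and 4 with a 10 mm pellet of dihydrotestosterone (Con-DHT), an androgen that is not converted to estrogen. Both groups had the same genotype, which the labels call WT; by the study's methods pellets were placed at 7 weeks of age, and the mice were fasted before collection; their strain is not given in the sources used here. Each mouse gave 1 library, with 13123962 to 17815944 reads on mouse genes. Values are normalised read counts (reads divided by 1 size factor per library), in which 3 reads correspond to 2.61 to 3.30. Fold changes and adjusted p-values came from limma on log2(value + 1) over the 14312 genes whose mean reached 10; Benjamini-Hochberg adjustment covered all of them, and the threshold was 0.05.

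Cytochromes P450 are heme enzymes of the endoplasmic reticulum that take electrons from P450 oxidoreductase (Por) and insert oxygen into drugs, steroids and fatty acids. In mice the Cyp2d genes lie together with several pseudogenes in 1 cluster on chromosome 15, and Cyp2d22 is often treated as the closest mouse counterpart of human CYP2D6. Cyp2d9 encodes the male-specific testosterone 16-alpha-hydroxylase of mouse liver, a classical example of a gene whose sex difference follows the male pattern of growth hormone release and the transcription factor STAT5B. The Cyp2d9 promoter is also known as a binding place of the ETS-family factor GABP and of HNF4.

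The promoters of 3 close relatives are printed because these genes had different changes in the data. Each window runs from 250 bases before to 50 bases after the RefSeq transcription start on GRCm38.p6 and is written 5′ to 3′ on the gene's strand: Cyp2d9 is at chr15:82452127-82452426 (+ strand), Cyp2d11 at chr15:82393973-82394272 (- strand) and Cyp2d10 at chr15:82407145-82407444 (- strand). Capitals mark TTCCGG (the core bound by ETS factors), a direct repeat of AGGNCA with 1 A between the copies (the kind bound by HNF4) and TTTATAA (resembling the box bound by the basal factor TBP), searched on both strands; no match overlapped another, and the second run of capitals in Cyp2d11 is the last of these on the other strand.
Cyp2d9: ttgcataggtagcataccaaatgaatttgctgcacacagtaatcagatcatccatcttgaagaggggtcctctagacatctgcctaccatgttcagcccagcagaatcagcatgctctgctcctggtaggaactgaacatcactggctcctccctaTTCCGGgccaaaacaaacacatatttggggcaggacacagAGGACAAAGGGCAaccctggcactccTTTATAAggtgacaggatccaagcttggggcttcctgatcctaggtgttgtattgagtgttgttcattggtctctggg
Cyp2d11: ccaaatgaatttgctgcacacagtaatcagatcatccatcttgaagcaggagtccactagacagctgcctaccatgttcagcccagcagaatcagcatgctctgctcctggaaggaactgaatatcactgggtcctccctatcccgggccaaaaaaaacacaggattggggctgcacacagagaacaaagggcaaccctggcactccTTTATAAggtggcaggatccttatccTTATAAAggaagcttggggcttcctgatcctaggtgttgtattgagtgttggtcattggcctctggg
Cyp2d10: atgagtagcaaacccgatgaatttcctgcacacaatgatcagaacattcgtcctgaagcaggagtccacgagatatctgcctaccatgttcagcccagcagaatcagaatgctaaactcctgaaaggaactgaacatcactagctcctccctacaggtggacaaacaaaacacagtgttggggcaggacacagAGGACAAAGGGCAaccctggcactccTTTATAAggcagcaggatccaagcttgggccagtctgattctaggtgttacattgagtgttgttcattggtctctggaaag
The motifs were chosen after the promoters had been seen, and a match is a description of letters, not of a bound site. Windows were held by the RefSeq table for 5 of the matched genes (these 3, Cyp2d26 and Cyp2d40). TTCCGG was in the Cyp2d9 window, at -94 to -89 from the start, and in none of the other 4, while 14.9% of all 32851 promoter windows hold it. The aligned letters of Cyp2d11 differ by T158C and those of Cyp2d10 by 5 substitutions, with positions counted from 1 at the 5′ end of the Cyp2d9 window. Over the aligned bases the Cyp2d9 window was 94% identical to that of Cyp2d11 and 84.8% identical to that of Cyp2d10. The direct repeat was in Cyp2d9 (-54 to -42), Cyp2d10 and Cyp2d40, against 0.0944% of all windows. TTTATAA was in all 5 windows, against 4.01% of all, and the STAT5 letters TTCNNNGAA were in none of the 5, against 8.3%.

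Cyp2d9 was the 1 Cyp2d gene that passed the test, and it was far higher in Con-DHT livers. The Con-Veh libraries held 148, 234, 790 and 1284 normalised counts and the Con-DHT libraries 18588, 11525, 6413 and 15164. The lowest Con-DHT value, in replicate 3, was therefore well above the highest Con-Veh value, in replicate 4. The mean was 614 ± 529 (SD, n = 4) in Con-Veh and 12922 ± 5211 (SD, n = 4) in Con-DHT, a ratio of means of 21.1. On the log2 scale Cyp2d9 rose by 4.79 (SE 0.62, 95% interval 3.42 to 6.16, limma adjusted p = 0.0015), a fitted fold of 27.7. The spread among Con-Veh livers was itself wide, 8.65 times between the lowest and the highest, against 2.9 times in Con-DHT. Of the 7 members 1 was called, higher in Con-DHT. Of all tested genes 7.21% were called in either direction, that is, 4.60% of all tested genes higher and 2.61% lower. In whole liver, a change in the number of cells of a type and a change in RNA per cell cannot be told apart.

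**Figure D1:**
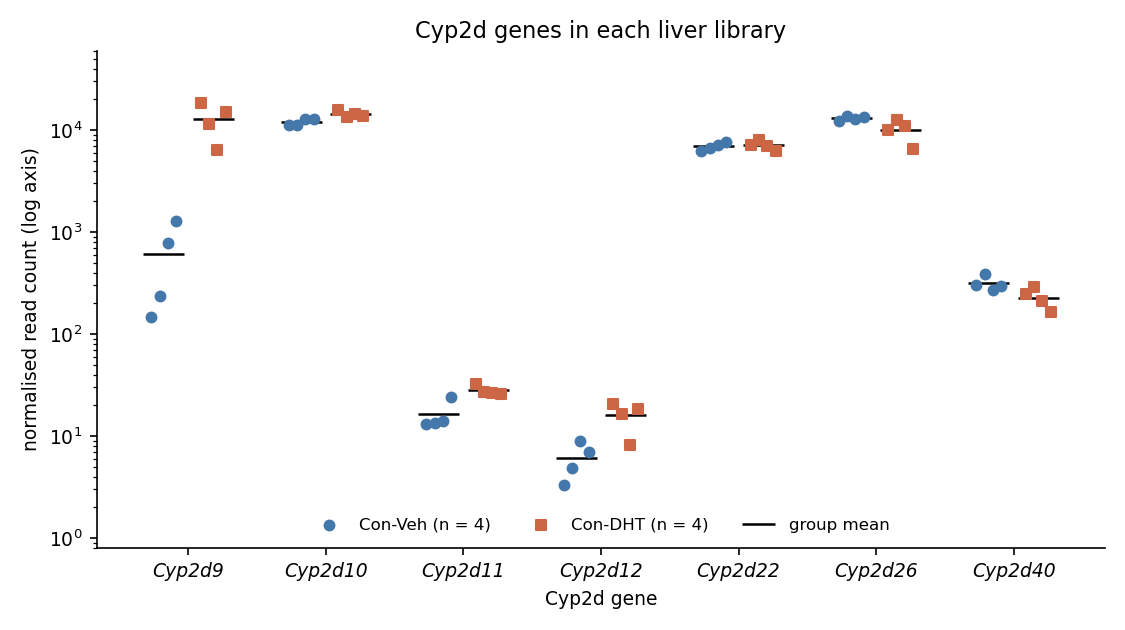
Normalised read counts (log axis) of the 7 Cyp2d genes in each library, with Con-Veh as circles, Con-DHT as squares (n = 4 each) and the group mean as a bar. Cyp2d9 moves from 148 to 1284 in Con-Veh to 6413 to 18588 in Con-DHT, and the other members lie within smaller shifts.

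The 3 other abundant members did not pass the limma threshold, with log2 differences from -0.43 to 0.26. Cyp2d10 had 11232, 11302, 12898 and 12939 normalised counts in Con-Veh and 15862, 13582, 14455 and 13902 in Con-DHT. The groups did not overlap, but the difference was small, 0.26 on the log2 scale (95% interval 0.05 to 0.46, limma adjusted p = 0.13). With DESeq2, which called 11.0% of genes, Cyp2d10 passed (adjusted p = 0.039). Cyp2d22 had 6185, 6703, 7169 and 7720 in Con-Veh and 7209, 8005, 6964 and 6202 in Con-DHT. Its groups covered the same range, with a log2 difference of 0.03 (95% interval -0.19 to 0.25, limma adjusted p = 0.89). Cyp2d26 had 12192, 13778, 12838 and 13568 in Con-Veh and 9911, 12518, 11004 and 6531 in Con-DHT. Of these Con-DHT values 3 were below every Con-Veh value, replicate 4 being the lowest, and the log2 difference was -0.43 (95% interval -0.81 to -0.04, limma adjusted p = 0.17).

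The remaining members were present at low levels. Cyp2d40 had 306, 392, 268 and 299 normalised counts in Con-Veh and 247, 292, 209 and 163 in Con-DHT, overlapping groups with a log2 difference of -0.49 (95% interval -0.88 to -0.09, limma adjusted p = 0.13). Cyp2d11 had 13.2, 13.5, 14 and 24.4 in Con-Veh and 32.4, 27.1, 26.5 and 26.1 in Con-DHT. Its groups did not overlap, although Con-Veh replicate 4 came close to the Con-DHT libraries, and the log2 difference was 0.79 (95% interval 0.24 to 1.34, limma adjusted p = 0.088). Without that library the limma adjusted p was 0.044, and in the other 7 fits without 1 library it was 0.13 to 0.19. Cyp2d12 rested on 3, 5, 9 and 8 reads in Con-Veh and 21, 17, 8 and 17 reads in Con-DHT, with Con-DHT replicate 3 inside the Con-Veh range. Its log2 difference was 1.27 (95% interval 0.39 to 2.14, limma adjusted p = 0.083), and the adjusted p was 0.045 without Con-DHT replicate 3 and 0.075 to 0.19 in the other 7 fits without 1 library. Non-overlapping groups were seen for 3 of the 7 members (Cyp2d9, Cyp2d10 and Cyp2d11), all higher in Con-DHT, against 15.1% of all tested genes in either direction and 8.49% higher in Con-DHT.

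Besides these genes, 2 Cyp2d pseudogenes were tested. Cyp2d37-ps had 702 ± 26.5 (SD, n = 4) normalised counts in Con-Veh and 777 ± 112 (SD, n = 4) in Con-DHT, with a log2 difference of 0.14 (limma adjusted p = 0.46), and Cyp2d41-ps had 40.7 ± 5.65 and 50.2 ± 10.8, with 0.28 (limma adjusted p = 0.43). Another feature, annotated as the miRNA gene Gm27463, lies inside the interval that RefSeq gives Cyp2d13 and was kept under its own name. It had 703, 908, 821 and 909 in Con-Veh and 1171, 1094, 901 and 807 in Con-DHT, overlapping groups with a log2 difference of 0.24 (limma adjusted p = 0.30).

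Whether the Cyp2d9 change differed from that of each other member was tested on the log2 ratio of Cyp2d9 to that member within each library, in which library scaling largely cancels. The ratio was higher in every Con-DHT library than in every Con-Veh library for all 6 other members. Against Cyp2d10 it went from -4.80 ± 1.34 (SD, n = 4) to -0.26 ± 0.64 (SD, n = 4), a difference of 4.53. Against Cyp2d11, whose transcript was the most like that of Cyp2d9 among the 7, it went from 4.70 ± 1.17 to 8.70 ± 0.59, a difference of 4.00. The differences were 4.76 against Cyp2d22, 5.22 against Cyp2d26, 5.28 against Cyp2d40 and 3.52 against Cyp2d12. Each of the 6 two-sided exact permutation tests gave p = 0.029 (0.029 after adjustment over the 6), the smallest that 4 against 4 can give. All 6 ratios share the Cyp2d9 values, whose groups were already known not to overlap, so that the 6 tests are not separate support.

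Levels were compared between members per kb of the principal GENCODE M21 transcript. In Con-Veh the order of mean levels was Cyp2d26 (7702 ± 426 normalised counts per kb, SD, n = 4), Cyp2d10 (7338 ± 579), Cyp2d22 (2508 ± 237), Cyp2d9 (358 ± 309), Cyp2d40 (272 ± 45.8), Cyp2d11 (10.2 ± 3.41) and Cyp2d12 (3.64 ± 1.5). The ranges of Cyp2d26 and Cyp2d10 overlapped, as did those of Cyp2d9 and Cyp2d40; the other neighbours were apart. In Con-DHT the order was Cyp2d10 (8768 ± 612), Cyp2d9 (7548 ± 3044), Cyp2d26 (5877 ± 1495), Cyp2d22 (2562 ± 268), Cyp2d40 (196 ± 47.3), Cyp2d11 (17.6 ± 1.84) and Cyp2d12 (9.63 ± 3.29). Cyp2d9 thus ranked next to Cyp2d10 and its range overlapped those of both Cyp2d10 and Cyp2d26.

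The summed level of the 7 genes was 16581, 17868, 18672 and 19647 per kb in Con-Veh and 29161, 25506, 21706 and 23543 in Con-DHT, a ratio of means of 1.37 with no overlap between groups. Without Cyp2d9 the sum was 16494 to 18897 in Con-Veh and 14685 to 18774 in Con-DHT, overlapping ranges with a ratio of 0.977. Cyp2d9 made up 0.523%, 0.763%, 2.47% and 3.82% of the sum in Con-Veh and 37.2%, 26.4%, 17.3% and 37.6% in Con-DHT. The share of Cyp2d26 was 42.4% ± 2.34 (SD, n = 4) in Con-Veh and 23.8% ± 6.64 (SD, n = 4) in Con-DHT, and that of Cyp2d10 was 40.3% ± 1.53 and 35.4% ± 3.68. Shares in 1 sum depend on each other, so that a larger Cyp2d9 share lowers the rest.

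**Figure D2:**
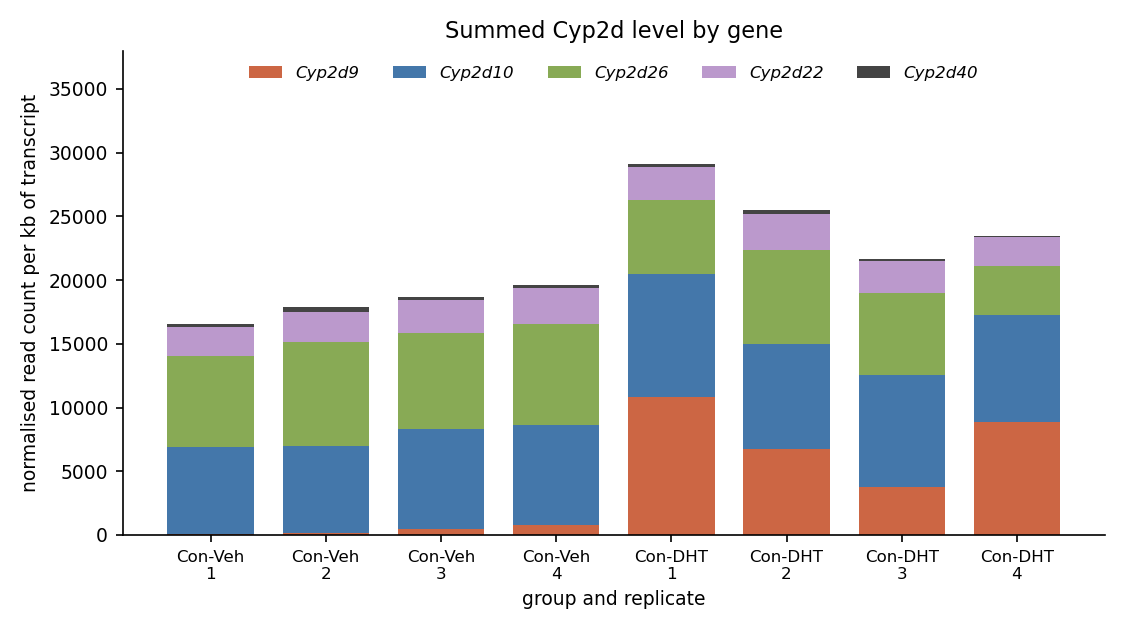
Summed level of the Cyp2d genes in each library in normalised counts per kb of transcript, stacked by gene (Cyp2d11 and Cyp2d12 are too low to be drawn). The Con-DHT bars reach 21706 to 29161 and carry a Cyp2d9 segment of 17.3% to 37.6%, against at most 3.82% in Con-Veh.

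The members share long stretches of sequence, which limits how far reads can be assigned. The principal transcript of Cyp2d9 was 93.4% identical to that of Cyp2d11, 91.6% to Cyp2d10, 91.4% to Cyp2d12, 83.5% to Cyp2d40, 80.7% to Cyp2d26 and 75.8% to Cyp2d22. Of all 150-base windows of Cyp2d9, 1.54% occurred unchanged in another Cyp2d transcript, against 6.4% for Cyp2d10, 5.62% for Cyp2d11, 0.598% for Cyp2d12 and 0 for the other 3. With 50-base windows the share was 40.5% for Cyp2d10, 37.2% for Cyp2d11, 29% for Cyp2d9, 24.1% for Cyp2d40, 17.9% for Cyp2d12, 10.5% for Cyp2d26 and 6.14% for Cyp2d22. The authors counted uniquely mapped reads only. Cyp2d11 and Cyp2d12 had 12 to 33 and 3 to 21 reads while Cyp2d9 reached 18946 in 1 library, and whether some of those few reads came from a relative was not tested.

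The genes around the cluster gave no similar change. Of 22 tested genes within 500 kb of either end, 0 were higher and 1 was lower in Con-DHT by limma. Over all tested genes 4.60% were higher and 2.61% lower, so that so few calls are near that share. The log2 differences of the 22 ran from -0.71 to 0.35, with a median of -0.09. The 1 that fell was Nfam1, an immune receptor gene, with 91.2, 119, 89.8 and 98.4 normalised counts in Con-Veh and 73.6, 58.1, 60.2 and 52.2 in Con-DHT (log2 -0.70, SE 0.15, limma adjusted p = 0.023); 4 of the 8 fits without 1 library called it, and spike-in scaling did not (0.77). Next to the cluster on its one side lie Ndufa6, a subunit of mitochondrial complex I (log2 -0.06, limma adjusted p = 0.69), and Smdt1, a part of the mitochondrial calcium uniporter (0.05, 0.84), and on the other side Tcf20, a transcriptional coregulator (0.35, 0.11). Srebf2, the sterol-sensing transcription factor, lies farther out and had a log2 difference of 0.06 (limma adjusted p = 0.86).

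**Figure D3:**
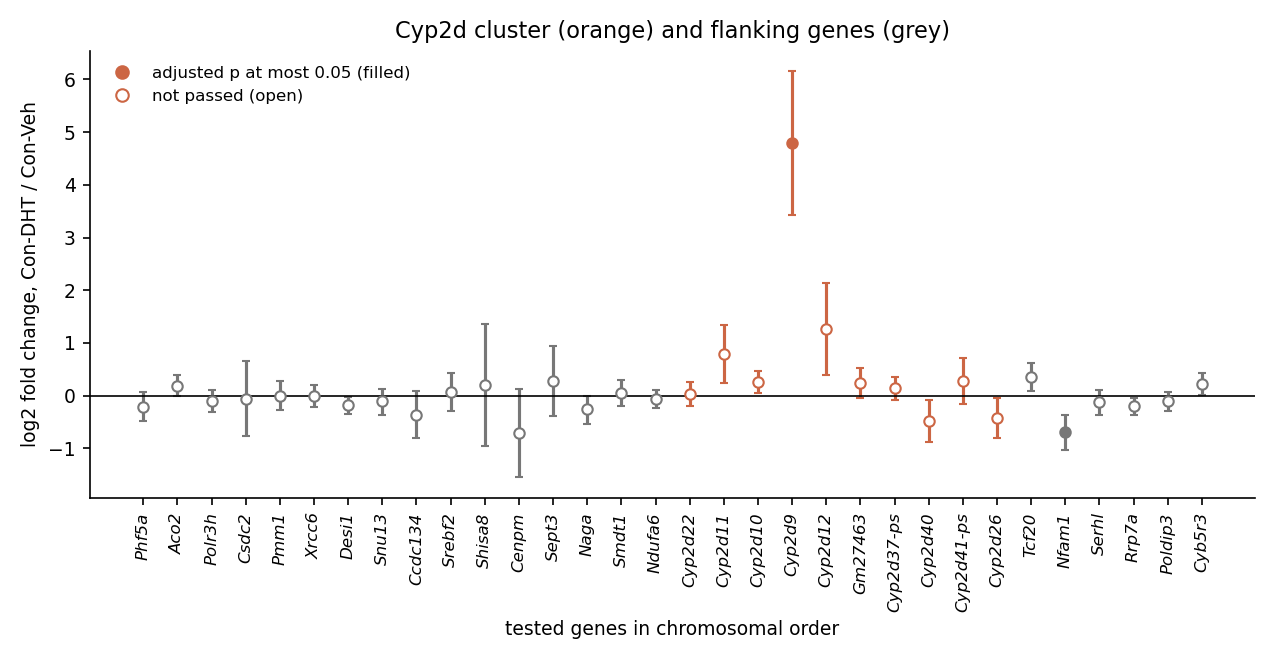
Log2 fold change (Con-DHT over Con-Veh, limma, with 95% interval) of the tested genes of the Cyp2d cluster (orange) and of its flanks (grey) in chromosomal order, filled where the adjusted p was at most 0.05. Cyp2d9 stands at 4.79 between Cyp2d10 at 0.26 and Cyp2d12 at 1.27, and the 22 flanking genes lie between -0.71 and 0.35.

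Calls among the other Cyp2 genes went in both directions. Of 28 tested Cyp2 genes outside Cyp2d, 3 were higher, 11 lower in Con-DHT and 14 did not pass, with a median log2 difference of -0.65, against 0.26 for the 7 Cyp2d members and -0.01 for all tested genes. In Cyp2a 2 of 5 were lower (median -0.98), in Cyp2b 2 of 3 (median -3.98) and in Cyp2c 7 of 12, with 1 higher (median -0.85). The 5 Cyp2a genes, and so the 28, include the pseudogene Cyp2a21-ps. It had 3 to 18 reads per library and did not pass, and its log2 difference of -0.98 is the Cyp2a median. The Cyp2d median was 0.26 also with its 2 pseudogenes included. In Cyp2j 1 of 3 was higher (Cyp2j6, limma adjusted p = 0.035), which passed in 2 of 8 fits without 1 library and not with spike-in scaling (0.51), and among the remaining 5 Cyp2 genes 1 was higher. Among the called genes outside Cyp2d, the largest falls were in Cyp2b13, a female-biased gene with 2074, 2906, 4193 and 3789 normalised counts in Con-Veh and 43.2, 14.5, 65.3 and 5.43 in Con-DHT (log2 -7.07, SE 0.61, limma adjusted p = 0.00025), and in Cyp2a4, a steroid 15-alpha-hydroxylase (log2 -5.78, SE 0.49, limma adjusted p = 0.00024). The largest called increases were in Cyp2u1, a fatty acid hydroxylase, with 20.9, 18.3, 9.98 and 51.4 in Con-Veh and 331, 210, 92.9 and 135 in Con-DHT (log2 2.96, SE 0.48, limma adjusted p = 0.0057), and in Cyp2c67 (0.75, SE 0.16, limma adjusted p = 0.022), whose call was lost without Con-DHT replicate 2 (0.060) and in 1 of 14 other alternatives. Cyp2 genes have near-identical copies, and reads between them may be split.

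**Figure D4:**
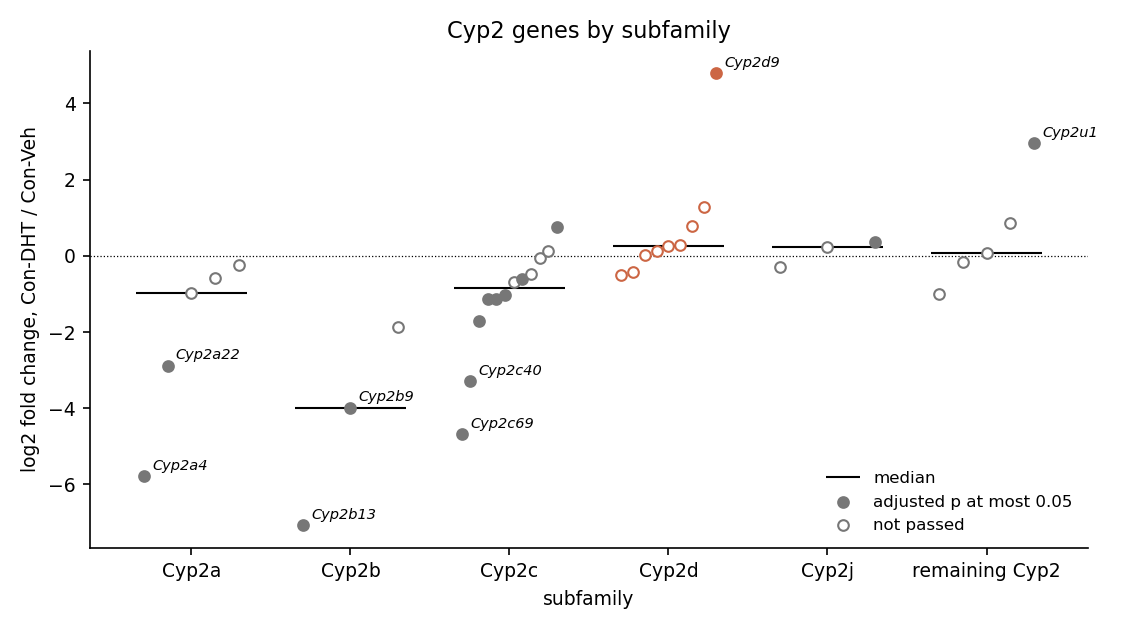
Log2 fold change (Con-DHT over Con-Veh, limma) of each tested Cyp2 gene by subfamily, with the median as a bar and genes past the threshold filled. Cyp2d (orange) includes the 2 pseudogenes, and Cyp2a includes the pseudogene Cyp2a21-ps. Cyp2d9 at 4.79 is the highest point of the plot, and Cyp2b13 at -7.07 is the lowest.

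Enzymes that hydroxylate testosterone, the reaction Cyp2d9 is known for, moved in both directions. Of 14 tested, 2 were higher (Cyp2d9 and the oxysterol 7-alpha-hydroxylase Cyp7b1, log2 2.32, limma adjusted p = 0.030) and 7 lower: Cyp3a44 (-5.77), Cyp2a4, Cyp2b13, Cyp3a41a (-4.43), Cyp2b9 (-3.98), Cyp2c29 (-1.02) and Cyp3a11 (-1.01), the last with 26665 ± 6850 (SD, n = 4) normalised counts in Con-Veh and 13365 ± 3748 (SD, n = 4) in Con-DHT. With 1 library left out, Cyp7b1 passed in 3 of 8 fits, Cyp2b9 in 2 of 8 and Cyp3a11 in 4 of 8, and spike-in scaling ended the calls of Cyp3a11 (limma adjusted p = 0.17) and Cyp2c29 (0.13). The median of the list was -1.01. Cyp2a5 had 5726, 13038, 20645 and 11250 in Con-Veh and 6979, 18922, 15947 and 1607 in Con-DHT, a spread too wide to show a difference (log2 -0.59, 95% interval -2.13 to 0.95, limma adjusted p = 0.66).

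Partners that P450 enzymes work with showed no called change. Of 7 electron transfer and membrane partners tested, 0 passed the limma threshold in either direction, with a median log2 difference of -0.03. Over all tested genes limma called 7.21%, the background for this and the following lists. EdgeR and DESeq2 called 0 of the 7 as well, and before adjustment 1 had a limma p-value up to 0.05. Por itself had 19894 ± 3324 (SD, n = 4) in Con-Veh and 20138 ± 3831 (SD, n = 4) in Con-DHT, a log2 difference of 0.01, and the heme-binding partner Pgrmc1 had -0.06. Of 12 genes of heme synthesis and breakdown, 7 had limma p-values up to 0.05 before adjustment. The share of all tested genes with such p-values was not worked out. Counts before adjustment, in this and every other list, therefore stand without a background. The groups of 4 of the 12 did not overlap, against 15.1% of all tested genes. On the recovered reads edgeR called 1 of the 12 and DESeq2 2. By limma, after adjustment, 0 were higher and 1 was lower, with a median log2 difference of -0.18. The 1 was Hmox1, the inducible heme oxygenase, with 510 ± 88.9 (SD, n = 4) and 342 ± 26.6 (SD, n = 4) (log2 -0.56, limma adjusted p = 0.021), called in 6 of the 8 fits without 1 library and in 11 of 14 other alternatives, with the call lost under spike-in scaling (0.87). Alas1, the rate-limiting enzyme of heme synthesis, had a log2 difference of 0.24 (limma adjusted p = 0.59).

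Among factors that have been reported to control liver Cyp2d genes, the transcripts described here did not pass the test. The hepatocyte factors Hnf4a and Cebpa had log2 differences of -0.23 (limma adjusted p = 0.22) and 0.24 (0.34), Stat5b of -0.24 (0.30), the GABP subunits Gabpa and Gabpb1 of -0.10 (0.51) and 0.07 (0.74), and Rsl1, a zinc finger repressor of male-biased liver genes, of -0.25 (0.65). Of 9 xenobiotic receptors and their partners, 0 passed by limma or edgeR and 2 by DESeq2, with a median of -0.08; before adjustment the same 2 had limma p-values up to 0.05. They were Ppara, the fatty acid receptor (0.46, limma adjusted p = 0.070), and Ahr, the dioxin receptor (-0.47, limma adjusted p = 0.070), whose groups did not overlap. The abundant receptors Rxra and Nr1i3 (CAR) had log2 differences of -0.01 and -0.11.

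Cyp2d9 moved in the same direction as a list of other male-biased liver genes. Of 14 such genes 13 were higher in Con-DHT, with a median log2 difference of 4.92, or 4.63 when the 3 genes with no more than 3 reads in any Con-Veh library (Cyp4a12b, Mup1 and Obp2a) were set to that floor. Mup20, a major urinary protein, had 900 ± 254 (SD, n = 4) in Con-Veh and 34314 ± 10636 (SD, n = 4) in Con-DHT (log2 5.25, limma adjusted p = 1.4e-05), and Slco1a1, an organic anion transporter, had 586 ± 194 and 4552 ± 2100 (2.88, limma adjusted p = 0.0011). Mup7 rose by 8.43, Mup11 by 5.99 and Cyp4a12a, a fatty acid hydroxylase, by 7.45 on that scale. Selenbp2 had 71.3 ± 4.32 and 548 ± 475 and missed the threshold (log2 2.31, limma adjusted p = 0.070). Of 16 female-biased liver genes 15 were lower, with a median of -5.05. Among them Cyp3a44 fell by 5.77 on the log2 scale (limma adjusted p = 0.00015) and Cyp2c69 fell by 4.67 (0.0020), and Cux2, a female-biased repressor, had -2.64 (limma adjusted p = 0.078). These lists were made with earlier results of these data known, so that their directions are a description.

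Within the groups, the size of the Cyp2d9 signal varied from liver to liver. In Con-DHT, replicate 3 had the lowest Cyp2d9 value, and it was also the lowest of the 4 for 12 of the 14 male-biased genes, while replicate 4 was the highest for 11 of them. In Con-Veh no library held such a place: each of the 4 was the lowest for 2 to 5 of the 14 genes. Cyp2d9 nevertheless differed by 8.65 times among the Con-Veh livers. Over the 8 libraries, after the mean of each group had been subtracted from the log2 values, Cyp2d9 had a correlation (Pearson's r) of 0.85 with Cyp2d12, 0.77 with Cyp2d10, 0.74 with Cyp2d11, 0.56 with Cyp2d22, -0.11 with Cyp2d26 and -0.26 with Cyp2d40. Cyp2d11 and Cyp2d12 rested on few reads. Cyp2d26 and Cyp2d40 had 0.79 with each other and Cyp2d22 and Cyp2d26 0.75. The genes outside Cyp2d with the highest r to Cyp2d9 by the same measure were Phyh, a peroxisomal enzyme of phytanic acid breakdown (0.981), Pctp, a phosphatidylcholine transfer protein (0.961), Bri3bp (0.953), the tRNA pseudouridine synthase Trub1 (0.952) and the peroxisomal reductase Decr2 (0.952). Phyh had 15059, 15340, 17657 and 18894 in Con-Veh and 26761, 26535, 24018 and 26846 in Con-DHT, so that its libraries stood in nearly the same order as those of Cyp2d9 within each group. These values share their libraries and their scaling, and are descriptions of 8 points.

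**Figure D5:**
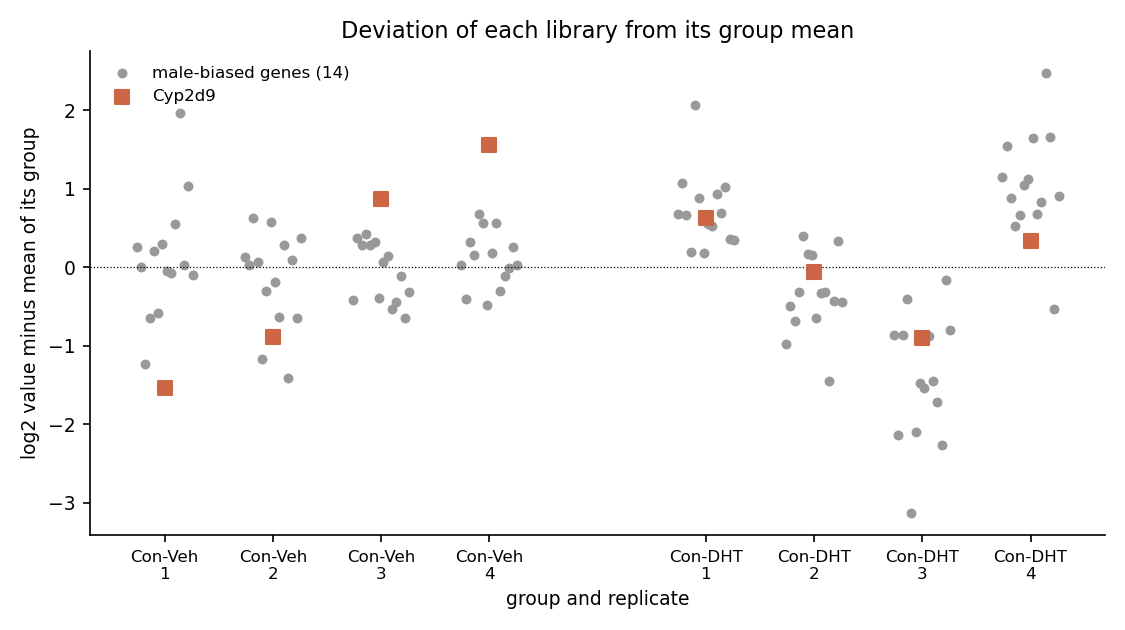
Deviation of each library from the mean of its group in log2(value + 1), for Cyp2d9 (orange squares) and the 14 male-biased genes (grey points), by group and replicate. Con-DHT replicate 3 lies below its group mean for Cyp2d9 and holds the lowest Con-DHT value of 12 of the 14 male-biased genes.

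Cell type markers were read beside these results. The hepatocyte markers were present throughout and summed to 1529408, 1057756, 1417462 and 1766993 normalised counts in Con-Veh and 1073647, 1113910, 988503 and 1137427 in Con-DHT, with Alb the most abundant; of 8 markers Serpina1c was higher (log2 0.54, limma adjusted p = 0.016) and Trf lower (-0.75, limma adjusted p = 0.013), and spike-in scaling ended both calls (limma adjusted p = 0.29 and 0.67). Of the 8 pericentral and the 8 periportal markers 0 passed the limma threshold, with medians of 0.03 and -0.15; edgeR called 0 of either, DESeq2 1 of each (Lgr5 and Cyp2f2), and before adjustment 1 and 3 of them had limma p-values up to 0.05. All 8 Kupffer cell and macrophage markers had negative log2 differences (-0.86 to -0.40, median -0.58) and limma p-values up to 0.05 before adjustment. EdgeR called 4 of them and DESeq2 5. By limma, after adjustment, 4 were lower (Cd5l -0.86, Cd68 -0.61, Vsig4 -0.57 and Clec4f -0.40). The list summed to 7626, 8043, 6513 and 7576 in Con-Veh and 6014, 4395, 4958 and 4518 in Con-DHT, with Cd5l the most abundant. With spike-in scaling these 4 limma calls were lost (limma adjusted p = 0.31, 0.84, 0.87 and 0.93), and Clec4f passed in 2 of 8 fits without 1 library. Of 7 sinusoidal endothelial markers (log2 -1.26 to 0.00, median -0.35), 4 had limma p-values up to 0.05 before adjustment. EdgeR called 1 of them and DESeq2 3. By limma, after adjustment, 2 were lower (Stab2 -0.55 and Lyve1 -1.26). The list summed to 4225, 4485, 4427 and 4643 in Con-Veh and 3095, 3766, 3532 and 3426 in Con-DHT, with Stab2 the most abundant. Stab2 passed in 6 of 8 and Lyve1 in 2 of 8 fits without 1 library, and the Stab2 call was lost with spike-in scaling (limma adjusted p = 0.88). Of the 2 lymphocyte markers tested Igkc was lower (-1.08, limma adjusted p = 0.042), and it passed in 1 of 8 fits without 1 library. Of the stellate cell (7 tested) and cholangiocyte (5 tested) markers 0 passed by limma, edgeR or DESeq2, with 1 and 0 limma p-values up to 0.05 before adjustment, and neutrophil markers were not analysed here. No marker of these lists was at 0 in a whole group. The part of these shifts in the small Cyp2d differences and in that of Nfam1 was not tested, and neither was their part in that of Cyp2d9.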

How the data were processed

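Liver RNA of 4 Con-Veh and 4 Con-DHT mice was sequenced as 1 paired-end library per mouse, with ERCC spike-ins. Per the study's methods and the submitters' processing notes, the authors trimmed reads with Trimmomatic, aligned them with STAR to GRCm39, used featureCounts (Subread) to count reads mapped to 1 place within exons and used DESeq2. The deposited values are a normalised signal, that is, read counts scaled by the library's size factor, in a table of 14371 features that holds no gene with fewer than 81 reads in all. Whole reads were recovered for 100% of values (tolerance 0.001 reads) and were used in the count tests only.

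Groups and replicate numbers came from the labels. Symbols, gene order, types and transcript lengths were taken from GENCODE M21 (GRCm38), with a symbol for 14292 of 14317 mouse genes, and promoters from RefSeq (GRCm38.p6); M21 coordinates were not converted. The main test was limma 3.58.1 (lmFit, eBayes with an intensity trend; R 4.3.3) on log2(value + 1) for genes with a mean of at least 10, which understates the change of low genes. Called means a Benjamini-Hochberg adjusted p of at most 0.05. Replicate error is between mice, 1 library each. Log2 ratios between members were compared by exact permutation (scipy 1.17.1). Promoters and transcripts were aligned with Biopython 1.88, and plots made with matplotlib 3.10.9. edgeR 4.0.16 and DESeq2 1.42.0 on the recovered reads, other pseudocounts, filters and scalings, a replicate block and leaving out each library were the alternatives. The members and lists were chosen with earlier results of these data known. Named were all members and other Cyp2d features, flanking genes, up to 8 called and 2 abundant genes of each list, the 2 largest called changes in each direction among other Cyp2 genes, and the 5 genes most like Cyp2d9 within groups (mean of at least 50); any other gene named was chosen after its values were seen. Some items of the lists and of the genotype are not reported here.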

Additional observations from a re-analysis of the deposited data

Results flagged for a closer look

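In the Con-Veh group the Cyp2d11 value of replicate 4 was 24.4 normalised counts while the other 3 libraries lay between 13.2 and 14, and in the Con-DHT group that of replicate 1 was 32.4 while the others lay between 26.1 and 27.1. In each case the gap to the nearest library, divided by the range of the group, (0.930 and 0.840) exceeded the 95% critical value of Dixon's test. The test was applied to 26 groups of values, of which chance marks about 1 in 20. Cyp2d11 rested on 12 to 33 reads per library.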

How the results depend on the processing

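Cyp2d9 was higher in Con-DHT and past the threshold in all 14 alternatives (log2 4.39 to 4.99) and in all 8 fits without 1 library (4.28 to 5.31). The number of called members was 2 with DESeq2 and with an equal total without the Mup genes, where Cyp2d10 joined, and 1 to 2 when 1 library was left out. The whole table had 1032 called genes (63.8% higher), and 1024 with edgeR on the recovered reads. It had 648 with a mean of at least 50, where fewer genes were tested, 637 with spike-in scaling and 1569 with DESeq2, whose causes were not tested, and 633 to 905 without 1 library (648 without Con-Veh replicate 2, 633 without Con-Veh replicate 4, 659 without Con-DHT replicate 1, 662 without Con-DHT replicate 2). The share of higher calls was 83.9% with an equal total without the Mup genes and 88.2% with spike-in scaling, which moved the median log2 difference of all genes to 0.19 and in which limma's prior degrees of freedom were infinite. The called genes of the non-marker lists numbered 26 to 36 over the alternatives, against 32. Cyp2d22 ranged from -0.03 to 0.09 without 1 library, with its sign changed to -0.02 without Con-Veh replicate 1 and to -0.03 without Con-DHT replicate 2. The smallest Cyp2d9 difference against another member, 3.52, was 3.39 to 3.86 with other pseudocounts and 3.22 to 3.96 without 1 library, where 3 against 4 cannot give an exact p below 0.057. Same-numbered libraries did not deviate together (r from -0.186 to -0.006), where differently numbered ones had r from -0.156 to 0.256. These values cannot settle whether the numbers pair the mice, and the main test used no pairing. With the replicate block 700 genes were called, and Cyp2d9 kept 4.79 (limma adjusted p = 0.0084). Depth limits Cyp2d11 and Cyp2d12 most, at 3 to 33 reads per library.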
